A study of Mus musculus with 6 samples.

Results

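The genes described here were 10 members of cytochrome P450 family 4 in mouse kidney, 6 of the Cyp4a subfamily (*Cyp4a10*, *Cyp4a12a*, *Cyp4a12b*, *Cyp4a14*, *Cyp4a31* and *Cyp4a32*), *Cyp4b1*, and 3 of the Cyp4f subfamily (*Cyp4f13*, *Cyp4f14* and *Cyp4f15*). They were chosen on measured differences between KSPAPN and Control in the same 6 libraries, so the differences of the members are given as a description. Members were part of the fit over all genes, and whether that fit calls them is no independent test. The deposited table lists 54532 genes, of which 27 carry a symbol of the family, and the other 17 are described after the members.

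KSPAPN mice carry the KsprtTA and TRE-adiponectin transgenes, and Control mice carry KsprtTA without TRE-adiponectin. Both groups received chow with doxycycline at 600 mg/kg for 4 days, so that the inducer and the rtTA protein were shared by both and the groups differed by the TRE-adiponectin transgene. Whole kidneys of male mice on a C57BL/6 background were used, and RNA of 3 mice was pooled for each of 3 libraries in a group, so the spread seen in a group is that of pools and not of single mice. The Ksp promoter places rtTA in tubule cells of several nephron segments, proximal ones included, and whole kidney also holds cells outside its range. The deposited labels call the Control genotype WT. Their tissue entry is kidney, but their wording on RNA extraction names liver.

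Enzymes of family 4 are heme proteins of the endoplasmic reticulum that add oxygen to the terminal carbon of fatty acids, with electrons from the P450 reductase. The products can be oxidised further to dicarboxylic acids, which are shortened in peroxisomes, and from arachidonic acid some Cyp4a enzymes make 20-HETE, an eicosanoid that acts on renal vessels and on tubular salt transport. In mouse kidney these genes are known mainly from the proximal tubule, the *Cyp4a10* and *Cyp4a14* genes respond to the fatty acid sensor PPARA, and *Cyp4a12a* is known as an androgen-dependent gene of males.

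The members are copies of each other to a varying degree, which bears on how reads can be assigned to them. To show this, 60 coding bases around the codon of the cysteine that holds the heme iron are printed from GENCODE transcripts (GRCm38), 5′ to 3′ on the coding strand, with that codon in capitals. Each window runs across an exon junction, so its coordinates also take in an intron. The window of *Cyp4a10* lies at chr4:115529493-115532564 on the plus strand, and *Cyp4a31* and *Cyp4a32* have the same 60 bases. The window of *Cyp4a12a* (chr4:115328977-115331867, plus strand) is identical in *Cyp4a12b* and differs from that of *Cyp4a10* at 4 bases. The windows of *Cyp4a14* (chr4:115487278-115489814, minus strand), *Cyp4b1* (chr4:115625195-115625671, minus strand) and *Cyp4f13* (chr17:32924921-32925349, minus strand) differ from it at 8, 13 and 17 bases.
Cyp4a10: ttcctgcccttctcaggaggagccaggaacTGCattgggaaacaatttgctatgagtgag
Cyp4a12a: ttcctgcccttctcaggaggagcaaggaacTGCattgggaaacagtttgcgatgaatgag
Cyp4a14: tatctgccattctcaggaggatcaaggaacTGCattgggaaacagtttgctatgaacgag
Cyp4b1: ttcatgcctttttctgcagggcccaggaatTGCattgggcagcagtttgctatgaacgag
Cyp4f13: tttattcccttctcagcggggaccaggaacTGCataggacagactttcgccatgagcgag

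Over the whole coding sequence, *Cyp4a12a* and *Cyp4a12b* were 98.5% identical and differed at 23 of 1527 aligned bases. *Cyp4a10* was 97.2% identical to *Cyp4a32* and 96.6% to *Cyp4a31*, whereas *Cyp4a14* was 75.5% identical to *Cyp4a10* and *Cyp4b1* 59.3%. Of all stretches of 100 bases in the longest transcript, 35.8% in *Cyp4a12a* and 36.2% in *Cyp4a12b* also occurred in a transcript of another gene. The share was 20.1% for *Cyp4a32*, 12.7% for *Cyp4a10*, 8.22% for *Cyp4a31* and 4.46% for *Cyp4b1*, and 0 for *Cyp4a14* and the 3 Cyp4f members. Reads from shared stretches could be counted on either copy or dropped, so the values of *Cyp4a12a*, *Cyp4a12b* and the trio of *Cyp4a10*, *Cyp4a31* and *Cyp4a32* are uncertain in how they divide between the copies. *Cyp4a12b* also overlaps the pseudogene *Gm12837* on the other strand, named here after its values were seen, which had 1, 3 and 5 counts in Control and 0, 0 and 0 in KSPAPN, and without known strandedness reads of an overlap cannot be told apart.

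RefSeq windows of 300 bases, most of them before the transcription start, were matched for 5 of the 10 members (GRCm38.p6). Those of *Cyp4b1* (chr4:115647672-115647971, minus strand), the most abundant member, and *Cyp4a32* (chr4:115600688-115600987, plus strand), its neighbour in the Cyp4a cluster, are printed 5′ to 3′ on the strand of the gene, with motif matches in capitals. Both strands were searched for TATAAA, for AGGTCA as the half-site of nuclear receptors, for a pair of AGGNCA in the same direction with 1 base between them, for AGAACA as a half-site of steroid hormone receptors, and for GTTAAT as the half-site of HNF1. A match of AGGTCA can lie within the pair. These were found in 13.6%, 16.3%, 0.381%, 19.0% and 7.10% of 32851 windows of this length.
Cyp4b1: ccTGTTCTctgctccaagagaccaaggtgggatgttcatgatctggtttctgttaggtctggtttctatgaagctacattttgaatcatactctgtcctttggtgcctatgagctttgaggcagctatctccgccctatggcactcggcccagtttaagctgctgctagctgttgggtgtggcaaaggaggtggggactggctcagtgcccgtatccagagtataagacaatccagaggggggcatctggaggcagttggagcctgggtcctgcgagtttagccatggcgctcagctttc
Cyp4a32: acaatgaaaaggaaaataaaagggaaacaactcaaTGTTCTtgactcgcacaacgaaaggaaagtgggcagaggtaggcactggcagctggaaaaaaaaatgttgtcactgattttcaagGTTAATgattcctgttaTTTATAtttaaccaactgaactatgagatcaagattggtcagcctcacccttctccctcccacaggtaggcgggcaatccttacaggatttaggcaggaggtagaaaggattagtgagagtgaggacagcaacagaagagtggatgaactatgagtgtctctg

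The *Cyp4b1* window held AGAACA on the opposite strand at 248 bases before the start and none of the other motifs. The *Cyp4a32* window held AGAACA on the opposite strand, TATAAA on the opposite strand and GTTAAT on the given strand. Of the windows of *Cyp4f13*, *Cyp4f14* and *Cyp4f15*, 1 of the 4 of *Cyp4f14* held GTTAAT on the opposite strand, and no other match was present. The promoters of *Cyp4a10*, *Cyp4a12a*, *Cyp4a12b*, *Cyp4a14* and *Cyp4a31* had no entry.

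Library totals of counted reads ran from 17183358 to 20871173. *Adipoq*, the overexpressed gene, had 2, 0 and 2 counts in the Control libraries and 24629, 17483 and 26811 in the KSPAPN libraries, so every library matched its label. Markers of kidney tubules were abundant in every library. *Slc34a1*, the phosphate transporter of the early proximal tubule, was at 1212 ± 136 FPKM (mean ± SD, n = 3) in Control and 1085 ± 103 in KSPAPN, and *Umod* of the thick ascending limb at 678 ± 52.6 and 653 ± 129. *Alb*, the main product of hepatocytes and named here after its value was seen, was at 2.05 ± 0.791 and 3.04 ± 2.40 FPKM, so the libraries had the markers of kidney named by the label and little of this defining marker of liver.

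All 10 members passed the filter on low counts. At an adjusted p under 0.05 in the edgeR fit across all 16017 genes tested, *Cyp4a10*, *Cyp4a12b* and *Cyp4a14* were called lower in KSPAPN, 3 of the 10 members, beside 2.25% of all genes called lower and 2.65% called in either direction, and no member was called higher, beside 0.393%. In 5 members (*Cyp4a10*, *Cyp4a12b*, *Cyp4a14*, *Cyp4b1* and *Cyp4f13*) every KSPAPN library was below every Control library in FPKM, beside 13.5% of all genes. The median log2 fold change of KSPAPN against Control was -0.84 over the 10 members and 0.01 over all genes tested. All 10 values were negative, beside 48.1% of all genes tested. The value of *Cyp4f14* was positive, at 0.01, after correction for GC content and gene length, and 0.13 without KSPAPN replicate 1. Because the members were chosen on this contrast, nothing is read from these counts. Whether a lower level comes from fewer cells of a type or from less RNA per cell cannot be told apart in whole kidney.

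**Figure D1:**
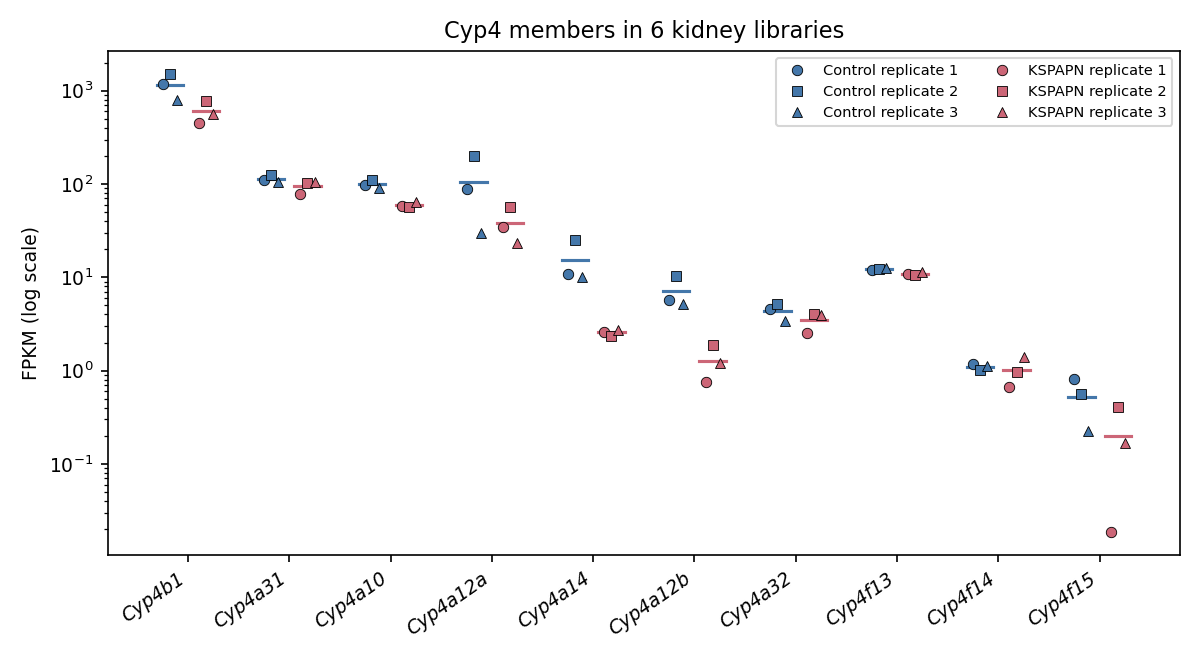
Each point is the FPKM of 1 library (log axis) for the 10 members, with Control in blue and KSPAPN in red, a marker shape for each replicate number, and a horizontal line at the mean of 3 libraries. *Cyp4b1* was the highest member in every library, and for *Cyp4a14* and *Cyp4a12b* all KSPAPN libraries lie below 3 FPKM and all Control libraries above 5 FPKM.

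*Cyp4b1* hydroxylates short and medium fatty acids and activates some foreign compounds, and it was by far the most abundant member. Its FPKM was 1172, 1524 and 799 in the Control libraries and 451, 782 and 567 in the KSPAPN libraries. All KSPAPN libraries were below all Control libraries, but Control replicate 3 and KSPAPN replicate 2 almost touched. The means were 1165 ± 363 and 600.2 ± 168 (SD, n = 3), and the log2 fold change was -0.95 with a standard error of 0.24. By mean FPKM *Cyp4b1* held place 16 of 21995 protein-coding genes in Control and place 32 in KSPAPN. It was not called in the edgeR fit given above, but in 5 of 16 fits, of which 3 held all 6 libraries and the others left out Control replicate 3 (log2 fold change -1.16) or KSPAPN replicate 2 (-1.18).

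*Cyp4a12a*, the main enzyme for 20-HETE in male mouse kidney, varied more between Control libraries than between the groups. Its FPKM was 89.4, 197 and 29.8 in Control and 34.3, 57.1 and 23.6 in KSPAPN. Control replicate 2 stood highest and Control replicate 3 fell within the range of the KSPAPN libraries, so the groups overlapped. The highest Control library was 6.62 times the lowest, compared with 2.42 times in KSPAPN. The log2 fold change of -1.46 (standard error 0.53) was -0.63 without Control replicate 2 and -1.89 without Control replicate 3. The gene was called in 4 of 16 fits, the latter among them.

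*Cyp4a12b* encodes a near copy of the same enzyme and was counted at a much lower level. It had 252, 432 and 220 counts in the Control libraries and 42, 82 and 60 in the KSPAPN libraries, or 5.68, 10.4 and 5.23 against 0.753, 1.87 and 1.21 FPKM. The groups were apart, and the highest Control library was again replicate 2. Its log2 fold change was -2.49 with a standard error of 0.34, and it lost the call without KSPAPN replicate 3, where the value was -2.45. Fits without 1 library gave values from -2.85 to -2.10. Counts on *Cyp4a12a* were 15.9, 19.2 and 5.77 times those on *Cyp4a12b* in Control and 46.0, 30.8 and 19.7 times in KSPAPN. The KSPAPN ratios lie above the Control ratios, with the caution that 35.8% of the 100-base stretches of *Cyp4a12a* are shared with *Cyp4a12b*.

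*Cyp4a14*, which hydroxylates lauric acid and is one of the genes through which PPARA activation is usually read, had a difference of about the same size as *Cyp4a12b*. Its FPKM was 10.9, 25.1 and 9.98 in Control and 2.62, 2.36 and 2.75 in KSPAPN. The KSPAPN libraries lay close together and all were below the lowest Control library, and the means were 15.3 and 2.58 FPKM (n = 3). The log2 fold change was -2.56 with a standard error of 0.32, that is 5.91 times lower. Without Control replicate 2, which was more than 2 times the other Control libraries, it was -2.02. *Cyp4a14* shares no stretch of 100 bases with another transcript.

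*Cyp4a10* and its near copies *Cyp4a31* and *Cyp4a32* lie next to each other on chromosome 4. The FPKM of *Cyp4a10*, the other classic PPARA-responsive member, was 97.9, 110 and 91.4 in Control and 58.7, 57.2 and 63.9 in KSPAPN. Both groups were tight and separate, and the log2 fold change was -0.73 with a standard error of 0.10. *Cyp4a31* was at 109, 124 and 105 FPKM in Control and 77.4, 102 and 105 in KSPAPN. The groups overlapped, with only KSPAPN replicate 1 clearly below Control, and the log2 fold change was -0.24 (standard error 0.12). *Cyp4a31* per *Cyp4a10* in FPKM was 1.12, 1.13 and 1.15 in Control and 1.32, 1.79 and 1.65 in KSPAPN, a ratio chosen after the values were seen. *Cyp4a32* was much lower, at 4.60, 5.14 and 3.37 FPKM in Control and 2.54, 4.02 and 3.99 in KSPAPN, and the groups overlapped (log2 fold change -0.31, standard error 0.24). Without KSPAPN replicate 1 the values were -0.10 for *Cyp4a31* and -0.11 for *Cyp4a32*.

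The Cyp4f enzymes act on long-chain fatty acids, leukotrienes and vitamins. *Cyp4f13* was the steadiest member, at 11.9, 12.3 and 12.6 FPKM in Control and 10.8, 10.5 and 11.3 in KSPAPN. The groups did not overlap, but they were close, and the log2 fold change of -0.17 (standard error 0.09) became 0.00 when a trend with GC content and gene length was removed. *Cyp4f14* ranged from 1.01 to 1.19 FPKM in Control and from 0.661 to 1.40 in KSPAPN. *Cyp4f15* had 34, 22 and 9 counts in Control and 1, 17 and 8 in KSPAPN, and for the log2 fold change of -1.46 the standard error was 0.75. Without KSPAPN replicate 2 it was -2.49, and without KSPAPN replicate 1 it was -0.87.

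**Figure D2:**
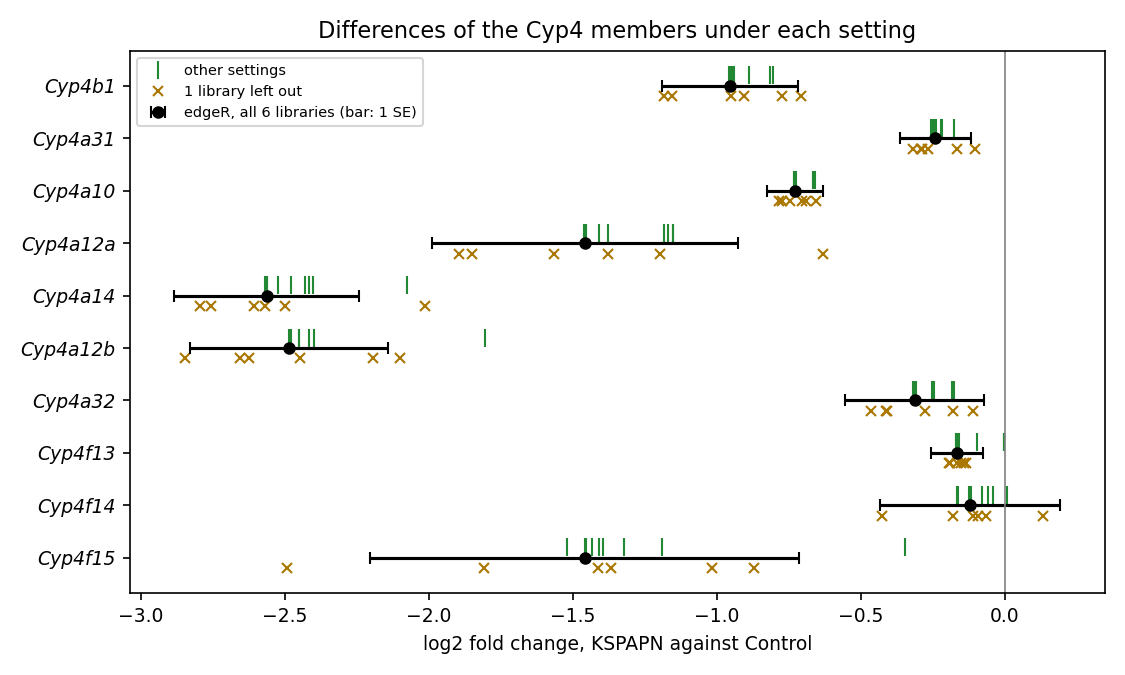
The log2 fold change of KSPAPN against Control is shown for each member, with black points for edgeR on all 6 libraries and bars of 1 standard error, green ticks for other settings and brown crosses for fits without 1 library. *Cyp4a14* and *Cyp4a12b* lie below -1.8 under each setting, and *Cyp4f14* crosses 0 in 2 of the fits.

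Summed over all 10 members, FPKM was 1503, 2010 and 1058 in Control and 639, 1018 and 781 in KSPAPN, so every KSPAPN library was below every Control library. Their share of all counts was 0.350%, 0.445% and 0.248% in Control and 0.164%, 0.235% and 0.188% in KSPAPN. *Cyp4b1* made up 75.6% to 77.9% of the summed FPKM in Control and 70.6% to 76.8% in KSPAPN. The 6 Cyp4a members together were at 318, 472 and 245 FPKM in Control and 176, 225 and 201 in KSPAPN, and the difference between Control libraries came mostly from *Cyp4a12a*. The 3 Cyp4f members together were at 13.9 ± 0.0622 FPKM in Control and 12.1 ± 0.712 in KSPAPN (SD, n = 3).

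**Figure D3:**
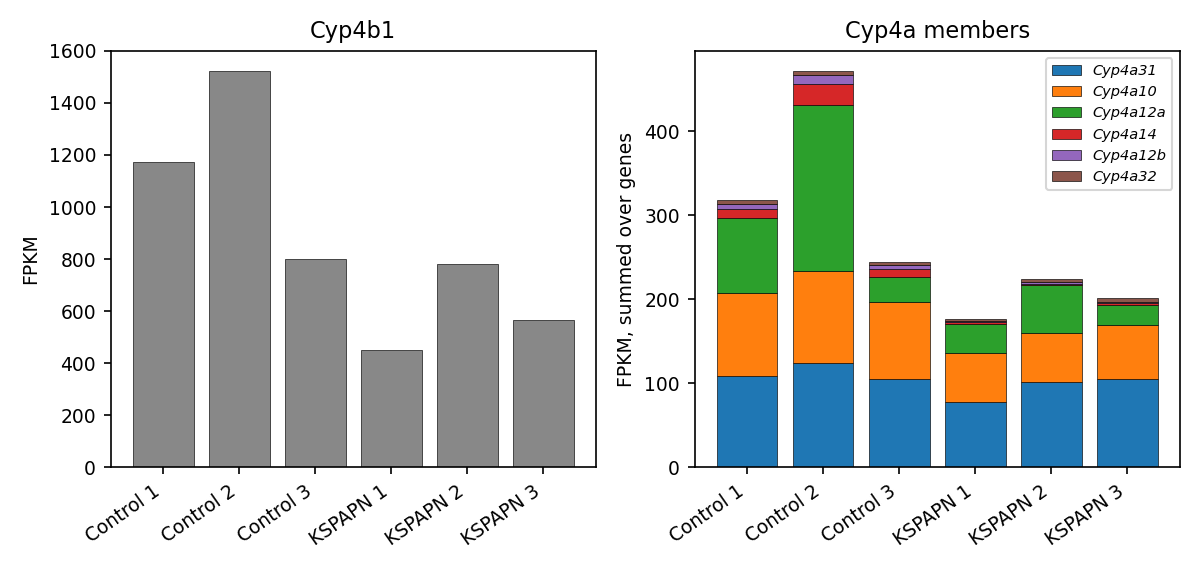
Bars give FPKM in each library for *Cyp4b1* (left) and for the 6 Cyp4a members stacked (right), both from 0. *Cyp4a12a* takes 197 FPKM of the stack of Control replicate 2 and 29.8 of Control replicate 3, while *Cyp4a31* stays between 77.4 and 124 FPKM over the 6 libraries.

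Ordered by mean FPKM in Control, *Cyp4b1* was followed by *Cyp4a31* (113), *Cyp4a12a* (105) and *Cyp4a10* (99.8), and the libraries of neighbours among these 3 overlapped. Then came *Cyp4a14* (15.3) and *Cyp4f13* (12.3), which overlapped, *Cyp4a12b* (7.10), *Cyp4a32* (4.37), *Cyp4f14* (1.10) and *Cyp4f15* (0.528), each apart from the next. In KSPAPN the order was *Cyp4b1*, *Cyp4a31* (95.0), *Cyp4a10* (59.9), *Cyp4a12a* (38.3), *Cyp4f13* (10.9), *Cyp4a32* (3.52), *Cyp4a14* (2.58), *Cyp4a12b* (1.28), *Cyp4f14* (1.01) and *Cyp4f15* (0.199). There *Cyp4a32* overlapped with *Cyp4a14* and *Cyp4a12b* with *Cyp4f14*, and *Cyp4a14* stood 2 places lower than in Control.

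Of the other 17 genes of the family in the table, 9 had no count in any library (*Cyp4a29*, *Cyp4a30b*, *Cyp4f37*, *Cyp4f40*, *Cyp4x1os* and the pseudogenes *Cyp4a28-ps*, *Cyp4a29-ps1*, *Cyp4a30-ps* and *Cyp4b1-ps1*), which allows up to 3 counts in the total of 112153010, a floor of 0.0268 CPM. *Cyp4f18*, *Cyp4f39*, *Cyp4x1* and *Cyp4b1-ps2* had 41, 22, 4 and 5 counts over the 6 libraries and did not pass the filter. The 4 that were tested were *Cyp4f16*, *Cyp4f17*, *Cyp4v3* and the pseudogene *Cyp4f41-ps*. None was called by edgeR or by DESeq2, and 2 had an unadjusted p under 0.05 in edgeR. *Cyp4f16* was at 3.92, 3.06 and 3.60 FPKM in Control and 5.99, 4.46 and 4.61 in KSPAPN, above Control throughout (log2 fold change 0.52, standard error 0.17, edgeR adjusted p = 0.141, higher in 3 of 3 KSPAPN libraries). *Cyp4v3*, known for its role in the retina, was at 1.19, 1.09 and 1.20 FPKM in Control and 1.75, 1.88 and 1.39 in KSPAPN, likewise above Control (log2 fold change 0.54, standard error 0.20, edgeR adjusted p = 0.185). These 2 of the 4 tested genes lay above Control in all KSPAPN libraries, beside 10.8% of all genes tested. They lay on the opposite side from *Cyp4a14* and *Cyp4b1*, but neither of the 2 passed the test. *Cyp4f17* (log2 fold change -0.12) and *Cyp4f41-ps* (0.00) overlapped between groups.

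The 7 Cyp4a and Cyp4b1 members lie within 348678 bases of chromosome 4 and the 3 Cyp4f members within 261776 bases of chromosome 17. Among the 30 other tested genes within 1000000 bases of the chromosome 4 cluster, 1 was called lower, *Akr1a1* (log2 fold change -0.60, standard error 0.12, edgeR adjusted p = 0.0340, lower in 3 of 3 libraries), an aldehyde reductase named here after its value was seen. Their median log2 fold change was -0.04, 16 of the 30 were negative, 7 had an unadjusted p under 0.05 in edgeR, and DESeq2 called 3. Around the Cyp4f cluster none of 47 genes was called by edgeR, 5 had an unadjusted p under 0.05, DESeq2 called 2, and the median was also -0.04. The median of all genes was 0.01.

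Enzymes that work with family 4 were next examined. For the lists from here on, a gene is said to have fallen or risen where edgeR called it lower or higher. Of 11 partners of omega oxidation, 9 were tested, 2 fell and none rose. By sign alone, 7 of the log2 fold changes were negative and 2 positive. *Por*, the reductase that passes electrons to every microsomal P450, was at 92.4, 79.7 and 85.3 FPKM in Control and 62.8, 61.1 and 64.3 in KSPAPN, and fell by 0.45 on the log2 scale (standard error 0.09, edgeR adjusted p = 0.0339). *Adh1*, an alcohol dehydrogenase that can oxidise omega-hydroxy acids, was at 182, 193 and 126 FPKM in Control and 63.3, 99.98 and 71.4 in KSPAPN and fell by 1.09 (standard error 0.19, edgeR adjusted p = 0.0179). *Cyb5a*, the most abundant of the list, was lower in 3 of 3 KSPAPN libraries but not called (log2 fold change -0.55, standard error 0.14, edgeR adjusted p = 0.0716). The median of the list was -0.25, beside 0.01 for all genes tested. *Por* was called in 5 and *Adh1* in 10 of 15 alternative fits, and from 0 to 4 genes of the list were called in these.

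Of 15 genes for the peroxisomal breakdown of dicarboxylic acids, 14 were tested, 2 fell and 1 rose, with a median of -0.16. *Acaa1b*, a peroxisomal thiolase, was at 138 ± 20.9 FPKM in Control and 67.7 ± 6.09 in KSPAPN (SD, n = 3) and fell by 1.02 (standard error 0.12, edgeR adjusted p = 0.00581). *Crot*, which moves shortened chains onto carnitine, fell by 0.76 (standard error 0.14, edgeR adjusted p = 0.0248). In the other direction *Scp2*, the peroxisomal thiolase and sterol carrier that was the most abundant gene of the list, rose from 337 ± 51.8 to 524 ± 41.4 FPKM (log2 fold change 0.64, standard error 0.13, edgeR adjusted p = 0.0311). All KSPAPN libraries were above all Control libraries for *Scp2* and below them for *Acaa1b* and *Crot*. *Scp2* was called in 8 and *Crot* in 10 of 15 alternative fits.

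PPARA targets outside the family were 29 genes, of which 26 were tested and 4 also stand in the peroxisomal list. Their median was -0.17, and 25 of the 26 values were negative, beside 48.1% of all genes tested. In edgeR *Acaa1b*, *Acadm* and *Ech1* were called lower and none was called higher. DESeq2 called 7 of the list, and 10 had an unadjusted p under 0.05 in edgeR. *Acadm*, the medium-chain acyl-CoA dehydrogenase, was at 264 ± 28.1 FPKM in Control and 160 ± 23.9 in KSPAPN (log2 fold change -0.72, standard error 0.13, edgeR adjusted p = 0.0214). *Ech1*, an isomerase of unsaturated chains, fell by 0.57 on the log2 scale (standard error 0.10, edgeR adjusted p = 0.0226). *Slc27a2*, the most abundant of these genes, was at 958 ± 85.3 and 943 ± 119 FPKM, and its groups overlapped. So did those of *Pdk4* (-0.15) and *Angptl4* (-0.08), well-known targets named after their values were seen. *Acaa1b* was called in 15 of 15 alternative fits, *Acadm* in 10 and *Ech1* in 6, and the number called in the list ran from 1 to 10.

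Of 10 transcription factors known to act on Cyp4 genes, 9 were tested and none was called by edgeR or by DESeq2, while 4 had an unadjusted p under 0.05 in edgeR. *Ppara* was at 10.1, 10.5 and 10.1 FPKM in Control and 7.73, 7.94 and 8.25 in KSPAPN. Both groups were tight and did not overlap, and the log2 fold change was -0.35 (standard error 0.09, edgeR adjusted p = 0.0780). *Rxra* (-0.17) and *Rxrb* (-0.29) also lay lower in all 3 KSPAPN libraries without being called. *Ppard* (-0.43), *Pparg* (-0.31), *Ppargc1a* (0.11), *Hnf4a* (0.03) and *Ncor1* (-0.03) overlapped between groups, and *Nr1i3* did not pass the filter. The median of the list was -0.29, and 0 to 1 genes of the list were called in alternative fits.

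Of 20 genes for the release of arachidonic acid and its other routes, 14 were tested, with a median of 0.00 and 7 values on each side of 0. *Ggt1*, which processes the glutathione group of leukotrienes, fell by 0.52 (standard error 0.12, edgeR adjusted p = 0.0483), but it was called in only 4 of 15 alternative fits. The epoxygenase *Cyp2j5*, the most abundant of the list, was at 557 ± 67.0 FPKM in Control and 497 ± 101 in KSPAPN. Its groups overlapped. Of the 20 genes, 1 also stands in another list.

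**Figure D4:**
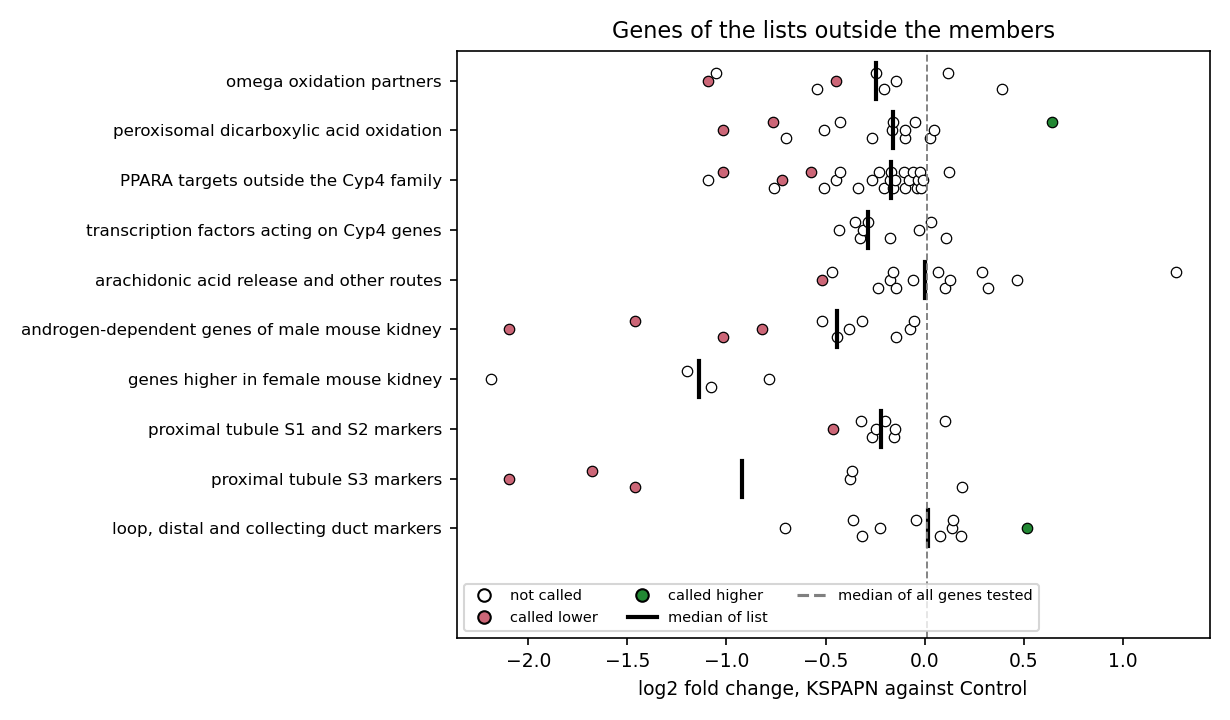
Each circle is the log2 fold change of 1 tested gene in KSPAPN against Control, filled red where called lower and green where called higher, with a bar at the median of each of the 10 lists shown and a dashed line at the median of all genes tested, 0.01. Medians of the lists shown run from -1.14 in the genes higher in female kidney to 0.02 in the loop, distal and collecting duct markers.

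Since *Cyp4a12a* depends on androgen, genes with a known sex difference in mouse kidney were compared. All 11 androgen-dependent genes of male kidney had negative log2 fold changes, beside 48.1% of all genes tested. Their median was -0.44, and edgeR called 4 lower and none higher. *Cyp7b1*, an oxysterol hydroxylase, was at 68.3 ± 19.9 FPKM in Control and 16.0 ± 4.47 in KSPAPN (SD, n = 3), with no overlap, and fell by 2.10 (standard error 0.23, edgeR adjusted p = 0.00581). *Slc7a13* (-1.46), *Cyp2d9* (-1.02) and *Cyp2e1* (-0.82) were called with edgeR adjusted p of 0.0259, 0.0389 and 0.0399. *Cyp7b1* was called in 15 of 15 alternative fits, *Slc7a13* and *Cyp2e1* in 10 and *Cyp2d9* in 8, and the number called in the list ran from 1 to 7. *Kap*, the most abundant of the list and the gene most used as a sign of androgen action, was at 24190, 32650 and 21620 FPKM in Control and 15470, 25930 and 21510 in KSPAPN, and its groups overlapped. Summed FPKM of the list was 25680, 34470 and 22880 in Control and 16160, 27020 and 22430 in KSPAPN, with Control replicate 2 highest, as for *Cyp4a12a*. None of the 11 was at 0 in all libraries, 3 of them stand in another list, and the part of androgen-dependent expression in the values of *Cyp4a12a* was not tested.

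Genes higher in female kidney did not go the other way. All 4 were negative, with a median of -1.14, none was called by edgeR or by DESeq2, and 3 had an unadjusted p under 0.05 in edgeR. *Cyp2a4*, the most abundant, was at 304, 376 and 149 FPKM in Control and 77.4, 205 and 78.1 in KSPAPN, and *Slc7a12*, named after its values were seen, at 12.6, 0.729 and 2.71 against 0.962, 1.26 and 1.30. *Prlr*, also named after its values were seen, was at 3.56, 0.387 and 1.29 FPKM in Control and 0.694, 1.195 and 1.151 in KSPAPN. *Cyp2a5*, likewise named after its values were seen, was at 62.91, 48.26 and 71.36 FPKM in Control and 13.65, 44.76 and 28.33 in KSPAPN. Only this gene of the 4 had groups that did not overlap (log2 fold change -1.08, standard error 0.32, edgeR adjusted p = 0.107). Control replicate 1 alone was high in *Slc7a12* and *Prlr*, and in both genes every KSPAPN library was above Control replicate 2. The sum over the 4 genes was 383, 426 and 224 FPKM in Control and 92.7, 252 and 109 in KSPAPN, so the groups overlapped.

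Markers of nephron segments were compared next. Of 6 markers of the proximal tubule S3 segment, 3 fell and none rose, with a median of -0.92, and their summed FPKM was 733, 836 and 623 in Control and 257, 411 and 388 in KSPAPN. *Slc22a7*, an organic anion transporter, was at 118, 141 and 113 FPKM in Control and 20.5, 42.0 and 53.6 in KSPAPN and fell by 1.68 (standard error 0.27, edgeR adjusted p = 0.0136). *Cyp7b1* and *Slc7a13*, the most abundant marker, were the other called genes and also stand in the androgen-dependent list, *Atp11a* (-0.38) and *Slc16a9* (-0.37) lay lower in all KSPAPN libraries without a call in edgeR, and *Slc5a1* (0.19) overlapped. DESeq2 called 5 of the 6 markers. No S3 marker was at 0 in all libraries. The part of the S3 segment in the lower values of the members was not tested.

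Of 8 markers of S1 and S2, only *Slc22a6* fell (log2 fold change -0.46, standard error 0.10, edgeR adjusted p = 0.0388), and the median was -0.22. Their summed FPKM was 2177, 1958 and 1863 in Control and 1730, 1651 and 1799 in KSPAPN, and *Slc34a1* was the most abundant. Of 10 markers of the loop, distal tubule and collecting duct, *Slc12a1* rose (log2 fold change 0.52, standard error 0.11, edgeR adjusted p = 0.0437), none fell and the median was 0.02. DESeq2 called 2 of the 10, and 5 had an unadjusted p under 0.05 in edgeR, of which the other 4, *Slc12a3* (-0.36), *Aqp3* (-0.32), *Slc4a1* (-0.71) and *Cdh16* (-0.23), were lower and are named after their values were seen. *Slc12a1* was called in 6 of 15 alternative fits and *Slc22a6* in 7. The sum of these 10 was 1874, 1644 and 1704 FPKM in Control and 2114, 1560 and 1639 in KSPAPN, with *Umod* the most abundant. None of these 18 markers was at 0 in all libraries. KSPAPN replicate 1 stood apart from the other KSPAPN libraries, with the highest sum of these 10 markers and the lowest S3 sum and *Cyp4b1* FPKM, and the cause was not tested.

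Other cell types showed few calls. None of 4 podocyte markers (median 0.32), 4 endothelial markers (median 0.08), 4 tested of 6 immune cell markers (median -0.02), 4 tested of 7 adipocyte markers (median 0.18) and 1 tested of 5 adrenal cortex markers (*Star*, 0.37) was called by edgeR or by DESeq2, and 1 podocyte and 1 adipocyte marker had an unadjusted p under 0.05 in edgeR. In alternative fits 0 to 1 podocyte markers were called. The most abundant were *Podxl* (31.8 FPKM), *Emcn* (9.05), *Lyz2* (10.6), *Fabp4* (9.05) and *Star* (1.66), as means of the 6 libraries. The adrenal genes *Cyp11b1* and *Cyp11b2* were at 0 in every library, and *Lep* of adipocytes at 0 in Control. Of 8 hepatocyte markers 7 were tested, with a median of -0.37, and only *Ttr* fell (log2 fold change -1.17, standard error 0.25, edgeR adjusted p = 0.0388). Their summed FPKM was 159, 172 and 92.9 in Control and 65.3, 94.8 and 61.1 in KSPAPN, of which *Ttr*, the most abundant, was 128, 146 and 69.6 in Control and 50.3, 63.4 and 38.3 in KSPAPN. *Ttr* was called in 9 of 15 alternative fits. The sums overlapped, no hepatocyte marker was at 0 in all libraries, and their part in the result was not tested.

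For 4 members the genes with the most similar pattern were sought among the 12248 genes whose mean FPKM reached 1, by the root mean square difference of log2 CPM (library-scaled counts) over the 6 libraries after the mean of each gene was subtracted. Nearest to *Cyp4a10* were *Sap30* (0.0462), *Nhp2* (0.0754) and *Fdx1* (0.0828). *Cyp4b1* lay nearest to *Cyp2e1* (0.132), *Adh1* (0.137) and *Serpinb8* (0.144), and *Cyp4a14* to *Cyp24a1* (0.219), *Ctxn3* (0.312) and *Gm13669* (0.358). *Cyp4a12a* had no close companion, with *Apoh* (0.433), *Gm42796* (0.454) and *Cyp2a4* (0.455) nearest. Among the members themselves, *Cyp4a12b* held place 5 for *Cyp4a14* (0.427) and *Cyp4b1* place 14 for *Cyp4a12a* (0.601). *Cyp4a12b*, at place 943 (0.907), was not among the genes most like its near copy *Cyp4a12a*.

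**Figure D5:**
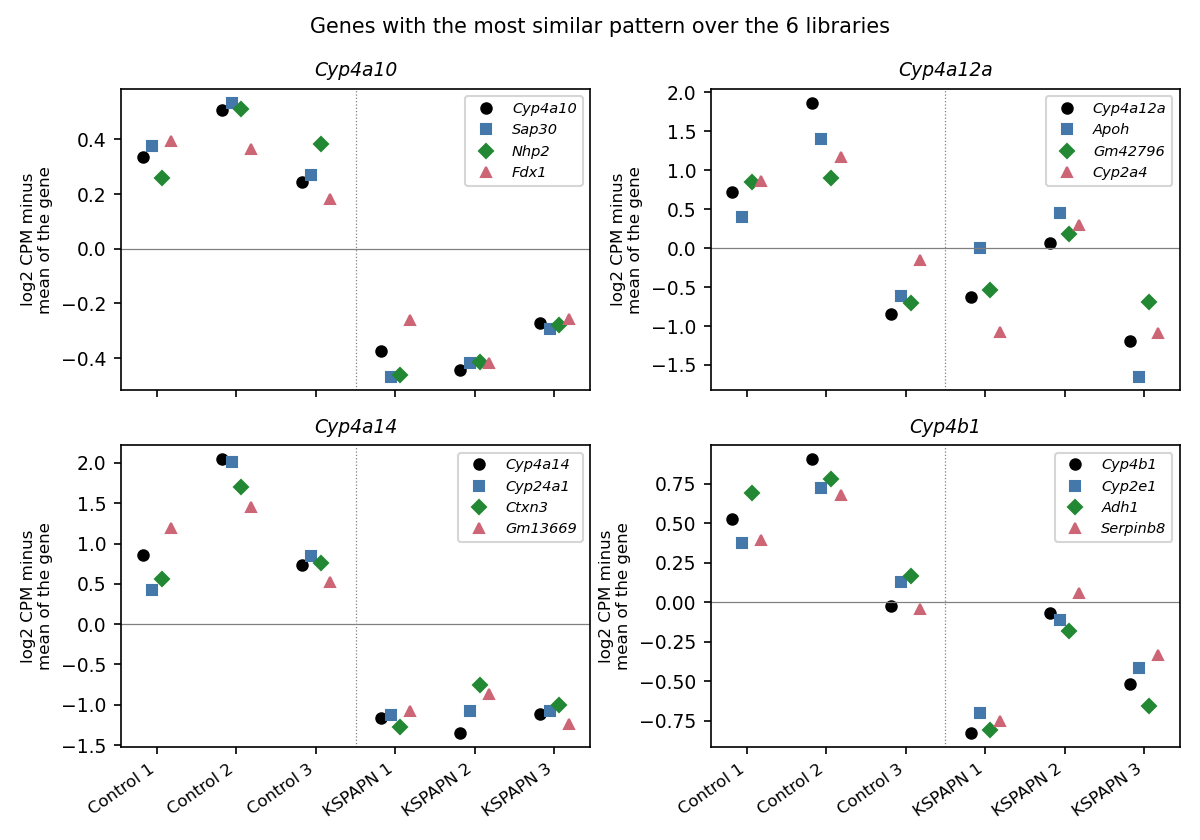
Points give log2 CPM minus the mean of the gene in each of 6 libraries for 4 members (black) and the 3 genes nearest to each, with the dotted line between Control and KSPAPN. For *Cyp4a12a* Control replicate 3 lies at -0.85, below KSPAPN replicate 2 at 0.07, while for *Cyp4a10* and *Cyp4a14* all Control points are above 0 and all KSPAPN points below it.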

How the data were processed

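RNA of whole kidneys was sequenced by a service company after oligo(dT) enrichment. The authors deposited counts of reads per gene, without normalization, and FPKM, whose library total is not stated. The submitters' processing notes name STAR 2.5, TopHat, HTSeq 0.6.1, DESeq2 and edgeR, without their roles. Not given in the sources used here are the strandedness, genome build and annotation.

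Symbols and coordinates came from GENCODE M21 (GRCm38), which matched 54495 of 54532 identifiers, and promoter windows from RefSeq (GRCm38.p6). Counts of all 6 libraries were normalized by TMM and compared with the two-sided quasi-likelihood test of edgeR 4.0.16 in R 4.3.3, after low counts were filtered by its default rule (at least 10 counts, total of at least 15), with Benjamini-Hochberg adjustment over the 16017 genes tested. Genes were called at an adjusted p under 0.05. Standard errors were the log2 fold change over the root of F. On counts simulated with a single dispersion and known changes, edgeR called 93% of the changed genes, and 2.62% of its calls were false. Tables and plots used Python 3.11.15, pandas 2.3.3, Biopython 1.88 and matplotlib 3.10.9.

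Alternatives were DESeq2 1.42.0, RLE factors, total counts only, no filter, limma 3.58.1 on log2(FPKM + 1) and log2(FPKM + 0.1), a block for replicate number, fits without 1 library, and removal of a trend with GC content and length (splines with 5 degrees of freedom, fitted above a mean log2 CPM, counts per 1000000, of 3), alone and with the block.

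The members and lists were chosen with earlier results of these data known. Named are the members, the other genes of the family, up to 4 called genes with the smallest p and the most abundant gene of each list, transcription factors of their list, the 3 genes nearest in pattern to 4 members, and *Adipoq*. Other genes were named after their values were seen. The lists were omega oxidation partners, peroxisomal oxidation of dicarboxylic acids, PPARA targets, transcription factors, arachidonic acid routes, androgen-dependent and female-higher kidney genes, and markers of S1 and S2, S3, loop to collecting duct, podocytes, endothelium, immune cells, hepatocytes, adipocytes and adrenal cortex.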

Additional observations from a re-analysis of the deposited data

How the results depend on the processing

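Pools of 3 mice, 3 libraries a group and shared reads between near copies limit these results, and p-values measure the spread between pools. The 424 genes called by edgeR (63 higher, 361 lower) became 925 with DESeq2, 266 with total counts only (71 higher, 195 lower), 1339 without a filter on low counts, and 128 and 119 with limma on log2(FPKM + 1) and log2(FPKM + 0.1). With each library left out the count ranged from 39, without Control replicate 1, to 733, without KSPAPN replicate 1, and was 125 without Control replicate 2, 276 without KSPAPN replicate 2 and 65 without KSPAPN replicate 3. The cause of these differences was not tested. RLE factors gave 412 and the correction for GC content and length 400.

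Of the members, 3 were called in the edgeR fit and with DESeq2, RLE factors, total counts only, both limma fits and the GC and length correction. Without a filter 5 were called, *Cyp4a12a* and *Cyp4b1* in addition. With each library left out the count ranged from 2, without KSPAPN replicate 3, to 5, without Control replicate 3. *Cyp4a10* and *Cyp4a14* were called in all 16 fits and *Cyp4a12b* in 15, which is no support, since the members were chosen on these values. No gene of the family outside the members was called in the edgeR fit or in the other fits, 0 with each library left out, with the exception given with the block.

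Calls in the gene lists also depended on the fit. Of the transcription factors, 1 was called without a filter, with the GC and length correction, with the replicate block and with the last 2 together. Among omega oxidation partners 2 genes were called, but 0 without Control replicate 1, Control replicate 2 or KSPAPN replicate 3 and with limma. Over all alternatives, calls ran from 1 to 6 among peroxisomal genes, 1 to 10 among PPARA targets, 0 to 1 among transcription factors and podocyte markers, 0 to 3 in arachidonic acid routes, 1 to 7 among androgen-dependent genes, 0 to 4 in female-higher genes, 1 to 5 among S3 markers, 0 to 2 in S1 and S2, 0 to 3 in loop to collecting duct, and 0 to 2 among hepatocyte markers. KSPAPN replicate 1 differed most from the others of its group (chi-square per gene 36.1 and 27.2, beside 11.0 between replicates 2 and 3).

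Same-numbered libraries shared only a number: deviations from the group means correlated at 0.05, 0.15 and 0.17, although every library correlated best with its own number, a hint from the data and not from the design. With the replicate block 929 genes were called, and 677 with the GC and length correction added (185 higher, 492 lower). Either blocked fit called 5 members, with *Cyp4a12a* (log2 fold change -1.18 with the block alone) and *Cyp4b1* (-0.94) in addition, and the corrected one also called 1 other gene of the family, *Cyp4f16*, so that count moved from 0 to 1.

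Genes that were not called changed sign as follows, with log2 fold changes in brackets. With total counts only these were *Slc27a2* (0.0487), *Ncor1* (0.0408) and *Umod* (0.0304). With the GC and length correction they were *Slc27a2* (0.0740), *Umod* (0.0514), *Ppargc1a* (-0.0410) and *Emcn* (-0.0331), and with the replicate block added *Slc27a2* (0.0705), *Umod* (0.0347), *Ppargc1a* (-0.0364) and *Emcn* (-0.0333).

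With 1 library left out, *Cyp4f41-ps* ranged from -0.326 (without Control replicate 2) to 0.431 (without Control replicate 3). The ranges from without KSPAPN replicate 2 to without KSPAPN replicate 1 were -0.113 to 0.0718 for *Slc27a2*, -0.0767 to 0.0220 for *Ncor1*, -0.256 to 0.00958 for *Cyp2j5* and 0.0782 to -0.201 for *Umod*. *Hnf4a* was at -0.0661 without KSPAPN replicate 2. *Emcn* ran from -0.00974 (without Control replicate 3) to 0.119 (without Control replicate 1), and *Lyz2* from -0.0863 (without KSPAPN replicate 1) to 0.536 (without KSPAPN replicate 3).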
